A study of Homo sapiens with 32 samples.

Results

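The aminoacyl-tRNA synthetases are the enzymes that load each amino acid onto its transfer RNA before protein synthesis. The genes described here are 36 synthetase genes out of 60660 genes in the count table. They were taken by symbol from a list of names, which was drawn up with earlier results of these data known. The list holds 20 genes of cytosolic enzymes (symbols ending in 1, with FARSA, FARSB and TARS3) and 16 genes of mitochondrial enzymes (symbols ending in 2). Each symbol was found in the table, and 34 of the 36 genes passed the filter on low counts in every comparison.

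RNA was sequenced from HCT116, a human colorectal carcinoma cell line, after exposure to tunicamycin or its solvent DMSO. Every group, controls included, carried a doxycycline-inducible (tetON) OsTIR1 transgene, a plant protein used for induced protein degradation. Parental cells gave 4 DMSO and 4 tunicamycin libraries, from samples 1 and 2 with replicates numbered 1 and 2. IGF2BP3 knockout cells gave 6 libraries of each treatment from the clones A3, D12 and E4, and IGF2BP2 knockout cells gave 6 of each from the clones B7, F6 and G6. IGF2BP2 and IGF2BP3 are RNA-binding proteins that bind many messenger RNAs. The tunicamycin dose was 5 µg/mL and the exposure 4 hours for the parental and IGF2BP3 knockout cells, whose controls received DMSO at 1:1000. For the IGF2BP2 knockout cells the labels state no dose or time. Each knockout clone grew from a single sorted cell after CRISPR/Cas9 editing, clones A3 and E4 share a guide, and clones F6 and B7 share a guide. The labels do not say whether libraries with different replicate numbers came from separate cultures, so the p-values measure the spread between these libraries, which may be technical. In bulk RNA, fewer cells with a transcript and less of it per cell cannot be told apart.

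Tunicamycin blocks N-linked glycosylation, so that unfolded proteins collect in the endoplasmic reticulum and the unfolded protein response begins. One of its branches, through the kinase PERK (gene EIF2AK3) and phosphorylated eIF2, favours translation of the transcription factor ATF4. ATF4 is known to activate genes of amino acid synthesis and uptake and genes of cytosolic synthetases, while mitochondrial synthetases are separate nuclear genes that serve translation inside mitochondria. ATF4 pairs with C/EBP proteins on a composite element written TGATGNAA, where N is any base.

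The promoters of the cytosolic genes are shown first because the letters of that element were found in many of the genes that rose with tunicamycin. RefSeq promoter windows of GRCh38.p14, from 250 bases before to 50 bases after each transcript start, were held for 30 of the 36 genes, 16 cytosolic and 14 mitochondrial. TGATGNAA, searched on both strands, was in the windows of 7 of the 16 cytosolic genes (43.8%), of 1 of the 14 mitochondrial genes (7.14%) and of 1217 of 27305 genes in all (4.46%). Some genes had several windows, and counted by window the shares were 33.3%, 5.56% and 3.62%. The 30 bases around each match follow, read 5′ to 3′ on the strand of the gene, with the match in capitals; TTGCATCA and TTTCATCA are the element read on the other strand.
AARS1: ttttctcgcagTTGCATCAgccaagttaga
CARS1: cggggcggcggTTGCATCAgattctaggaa
GARS1: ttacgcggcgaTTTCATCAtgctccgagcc
IARS1: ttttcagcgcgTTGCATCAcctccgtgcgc
MARS1: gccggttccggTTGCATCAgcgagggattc
NARS1: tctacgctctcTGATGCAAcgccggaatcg
TARS1: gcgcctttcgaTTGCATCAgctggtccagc
YARS2: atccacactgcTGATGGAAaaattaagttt

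The AARS1 stretch lies at chr16:70289675-70289704 on the minus strand, with its match at positions -187 to -180 from the start. The other cytosolic matches sit nearer to a start. The CARS1 stretch is at chr11:3057407-3057436 (minus strand), the GARS1 stretch at chr7:30594834-30594863 (plus) and the IARS1 stretch at chr9:92293692-92293721 (minus). The MARS1 stretch is at chr12:57488053-57488082 (plus), the NARS1 stretch at chr18:57621804-57621833 (minus) and the TARS1 stretch at chr5:33440956-33440985 (plus). YARS2, the mitochondrial gene with a match, holds it at positions -197 to -190 in chr12:32756076-32756105 (minus). A match is a description of these letters and not a measured binding site.

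Library totals ran from 16651438 to 24913021 counts, with a median of 21441775.5. IGF2BP3 stood at 70.09 to 82.82 CPM, counts scaled to a common library size, in parental DMSO libraries and at 18.74 to 41.79 in IGF2BP3 knockout DMSO libraries, and IGF2BP2 at 159.1 to 195.4 in parental and 81.3 to 92.79 in IGF2BP2 knockout DMSO libraries, so both targeted transcripts were lower but present. Of 6 colon epithelial markers 5 had counts in every library, while VIL1 was near 0, and the summed level of 4 leukocyte markers did not exceed 0.1962 CPM. The 4 fibroblast markers summed to 5.005 to 12.34 CPM, with 1 of them at 1 CPM or more. The 3 endothelial markers summed to at most 0.8849 CPM, with 1 of them counted in every library. The control libraries of clone G6 carry a tunicamycin tag in 1 label and a control title; they were placed by title. Their HSPA5 level, a chaperone induced by tunicamycin, was 873 to 988 CPM, against 816 to 1100 in the other DMSO libraries and 7890 to 10300 in the tunicamycin libraries.

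Before treatment, the cytosolic genes were the more abundant. In parental DMSO libraries, on the scale of CPM per kilobase of exon, the highest mean levels were those of IARS1 (82.28), EPRS1 (71.54), GARS1 (70.61), KARS1 (70.12) and NARS1 (64.6). IARS2 (63.37) was the mitochondrial gene with the highest level, at the sixth place of all 36, and the next mitochondrial gene was RARS2 (19.26). CARS1 (6.803) and TARS3 (3.877) were the cytosolic genes with the lowest levels, among the mitochondrial ones. The 20 cytosolic genes summed to 4598 ± 307.8 CPM (SD, n = 4) and the mitochondrial genes to 756.5 ± 33.17 CPM (SD, n = 4).

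SARS2 and VARS2, which charge mitochondrial serine and valine tRNA, were listed at 0 counts in all 32 libraries. A count of 0 allows up to 3 counts per library, which is 0.12 to 0.18 CPM, counting error only. In the GENCODE v29 annotation SARS2 shares 1492 exon bases (46.178% of its exon length) with AC011455.2 on the same strand, and VARS2 shares 1858 (21.993%) with GTF2H4; the part of this overlap in the 0 counts was not tested. These genes enter no fold change here.

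The first comparison asked which synthetase transcripts change with tunicamycin in each genotype. In parental cells 12 of the 20 cytosolic genes rose and none fell, by edgeR's quasi-likelihood test with an adjusted p under 0.05; over all 14398 genes tested, 12.5% rose and 14.3% fell. Of the 14 mitochondrial genes tested none rose and 4 fell. IGF2BP3 knockout cells had 13 cytosolic genes higher and 1 lower, and 0 mitochondrial genes higher and 4 lower, where 16.2% of all genes rose and 17.6% fell. In IGF2BP2 knockout cells 14 cytosolic genes rose and 1 fell, and 0 mitochondrial genes rose and 5 fell, against 19.2% and 20.9% of all genes. Over all genes, 5256 of 14398 had an unadjusted p under 0.05 in parental cells. In IGF2BP3 knockout cells 6018 of 14265 did, and in IGF2BP2 knockout cells 6681 of 14145. Of the 14 mitochondrial genes 6, 7 and 7 did in the same order, of which 1 (WARS2), 0 and 1 (WARS2) were higher. DESeq2 called none of them higher in the parental or the IGF2BP3 knockout cells and WARS2 higher in the IGF2BP2 knockout cells.

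The same 12 cytosolic genes rose in all 3 genotypes: AARS1, CARS1, EPRS1, GARS1, IARS1, LARS1, MARS1, NARS1, SARS1, TARS1, WARS1 and YARS1. FARSA rose in both knockouts and FARSB in the IGF2BP2 knockout. The median log2 fold change of the 20 cytosolic genes was 0.36 in parental, 0.33 in IGF2BP3 knockout and 0.38 in IGF2BP2 knockout cells. For the 14 mitochondrial genes it was -0.066, -0.084 and -0.091, and for all genes tested -0.007405, -0.0054 and -0.01064. Summed over the group, cytosolic synthetase transcripts stood at 6362 ± 182.8 CPM (SD, n = 4) in parental tunicamycin libraries, and the mitochondrial ones at 710.5 ± 20.86 CPM.

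**Figure D1:**
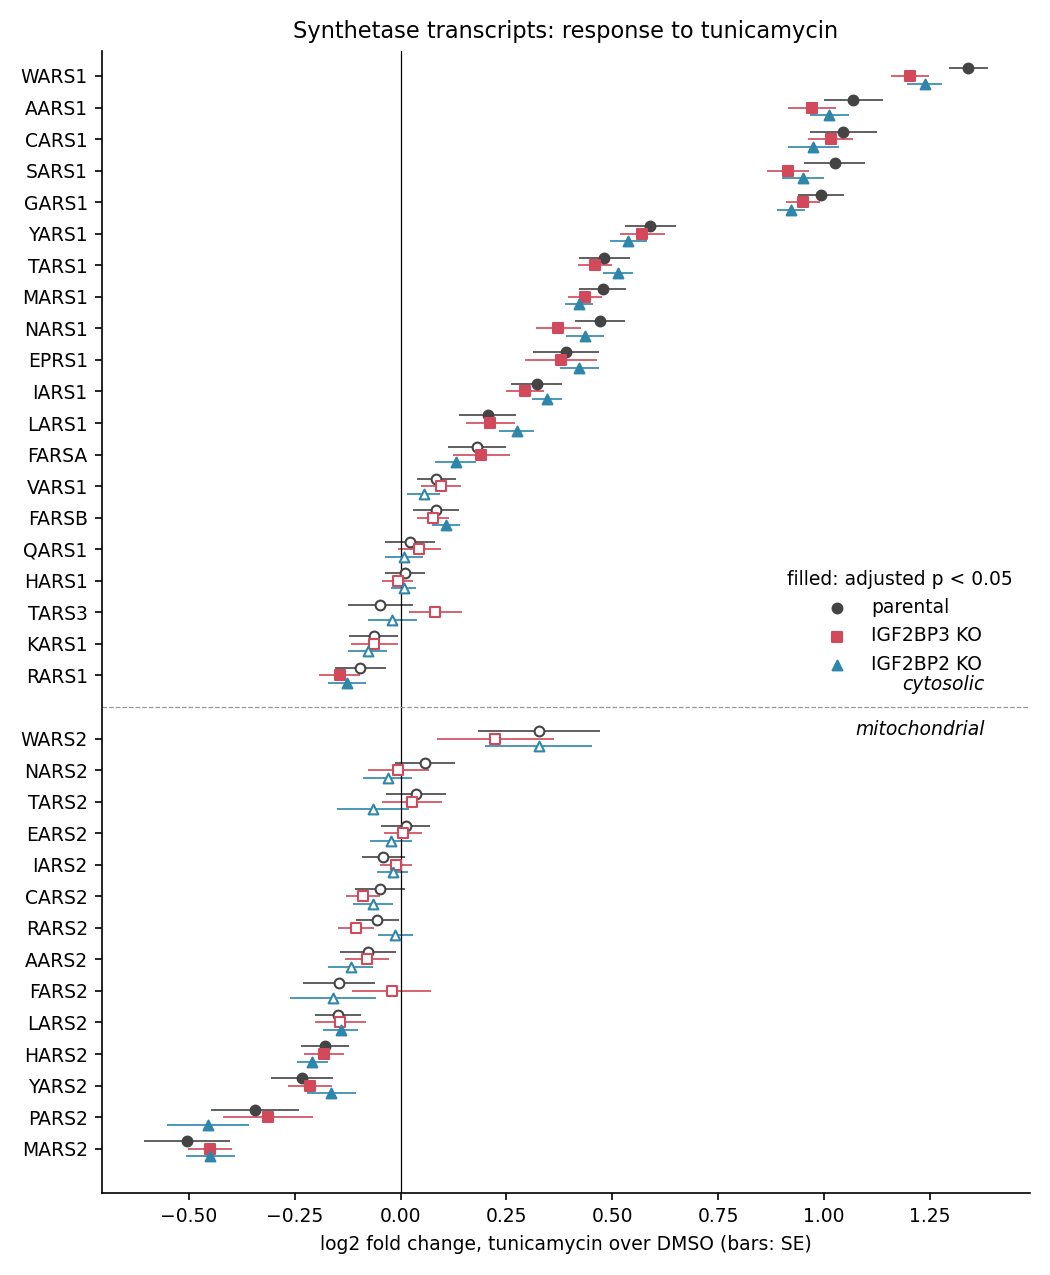
Log2 fold change of tunicamycin over DMSO for the 34 genes tested, with bars of 1 SE, by genotype; filled symbols have an edgeR adjusted p under 0.05. The cytosolic genes spread from -0.14 (RARS1) to 1.34 (WARS1), and the filled mitochondrial symbols all lie below 0.

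WARS1, which charges tryptophan and lies at chr14:100333788-100376805 (minus strand), rose the most in each genotype. Its 4 parental DMSO libraries stood at 105.9, 115.6, 117.2 and 118.1 CPM and its tunicamycin libraries at 283.3, 284.4, 286.8 and 299.2. In the IGF2BP3 knockout the lowest, median and highest were 104.3, 115 and 127.2 CPM under DMSO and 246.8, 258.9 and 286.8 under tunicamycin. The IGF2BP2 knockout gave 103.1, 107.5 and 121.9 CPM and then 247.7, 260.1 and 276. Every tunicamycin library lay above every DMSO library, and the log2 fold change was 1.34 ± 0.046 (SE; edgeR adjusted p = 4e-08) in parental cells, 1.20 ± 0.045 in the IGF2BP3 knockout and 1.24 ± 0.042 in the IGF2BP2 knockout. The WARS1 promoter window held no TGATGNAA.

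AARS1, the alanine enzyme, stood at 218.4, 229.3, 264 and 272.2 CPM in parental DMSO libraries and at 489, 499.2, 529 and 542 under tunicamycin. Its knockout libraries ran from 208.7 through a median of 246.5 to 266.9 CPM and then 437, 470.6 and 527 for IGF2BP3, and 200.8, 249.7 and 297.7 and then 457.7, 496.4 and 550.5 for IGF2BP2. The treatments did not overlap in any genotype, and the level about doubled: the log2 fold change was 1.07 ± 0.070 (SE; edgeR adjusted p = 3.8e-06), 0.97 ± 0.056 and 1.01 ± 0.047 in parental, IGF2BP3 knockout and IGF2BP2 knockout cells.

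CARS1, the cysteine enzyme, had parental DMSO levels of 59.92, 64.21, 71.47 and 77.53 CPM and tunicamycin levels of 128.7, 132.6, 144.1 and 157.3. The IGF2BP3 knockout had a lowest, median and highest level of 57.3, 67.96 and 77.65 CPM and then 127.1, 134.7 and 146.6, and the IGF2BP2 knockout of 58.76, 69.48 and 80.56 and then 129.7, 133.7 and 145.2. Again no treatment groups overlapped, with log2 fold changes of 1.05 ± 0.079 (SE; edgeR adjusted p = 9.35e-06), 1.02 ± 0.054 and 0.98 ± 0.060. CARS1 therefore rose by a similar ratio to AARS1 from one of the lowest cytosolic levels per kilobase.

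SARS1 charges serine and also the selenocysteine tRNA, and GARS1 supplies glycyl-tRNA synthetase to the cytosol and to mitochondria from a single gene. SARS1 went from 145.5, 146.2, 171.8 and 177 CPM to 305.2, 310.2, 340.4 and 345.1 in parental cells, and its medians from 154.9 to 290.8 in the IGF2BP3 knockout and from 153.6 to 307.2 in the IGF2BP2 knockout. GARS1 went from 274.4, 275.4, 307.7 and 315.1 CPM to 557.2, 581.8, 583.7 and 605.7 in parental cells, with medians from 304.9 to 590.8 and from 310.8 to 592.3 in the knockouts. Neither gene had overlapping treatments in any genotype. The parental log2 fold changes were 1.03 ± 0.072 for SARS1 (SE; edgeR adjusted p = 5.98e-06) and 0.99 ± 0.055 for GARS1 (edgeR adjusted p = 1.14e-06).

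The other 7 genes that rose in all genotypes changed less. YARS1 (tyrosine) had log2 fold changes of 0.59, 0.57 and 0.54, in the order parental, IGF2BP3 knockout and IGF2BP2 knockout. TARS1 (threonine) had 0.48, 0.46 and 0.51, MARS1 (methionine) 0.48, 0.44 and 0.42, and NARS1 (asparagine) 0.47, 0.37 and 0.44. EPRS1, a single protein that charges both glutamate and proline, had 0.39, 0.38 and 0.42. IARS1 (isoleucine) had 0.32, 0.29 and 0.35, and LARS1 (leucine, also known as a leucine sensor for mTORC1) 0.21, 0.21 and 0.27. MARS1 shares 355 exon bases (5.051%) with the antisense gene DDIT3, whose log2 fold change was 6.81 in parental cells; whether counting used the strand is not given in the sources used here, and the part of DDIT3 reads in the MARS1 level was not tested.

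EPRS1 and LARS1 were the least even of the 12. Parental EPRS1 stood at 366.8, 368.3, 411.6 and 412.8 CPM under DMSO and 429.8, 496.4, 559.7 and 561.3 under tunicamycin, and in the IGF2BP3 knockout its range of 326.3 to 478.9 overlapped that of 425.2 to 603.1. LARS1 stood at 192.7, 192.9, 195.3 and 197.7 CPM and then 193.5, 226.7, 232.8 and 244.2 in parental cells. Within pairs of the same line and replicate number, EPRS1 was higher with tunicamycin in 16 of 16 pairs and LARS1 in 14 of 16. Over the 8 lines the mean log2 ratio was 0.28 in replicate 1 and 0.51 in replicate 2 for EPRS1, and 0.15 and 0.31 for LARS1. The EPRS1 call was lost without clone D12 (edgeR adjusted p = 0.0633, IGF2BP3 knockout). The LARS1 call was lost without clone D12 or clone E4 (edgeR adjusted p = 0.152 and 0.0912) and, in parental cells, without replicate 1 or 2 of sample 1 (0.201 and 0.218) or replicate 2 of sample 2 (0.13).

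**Figure D2:**
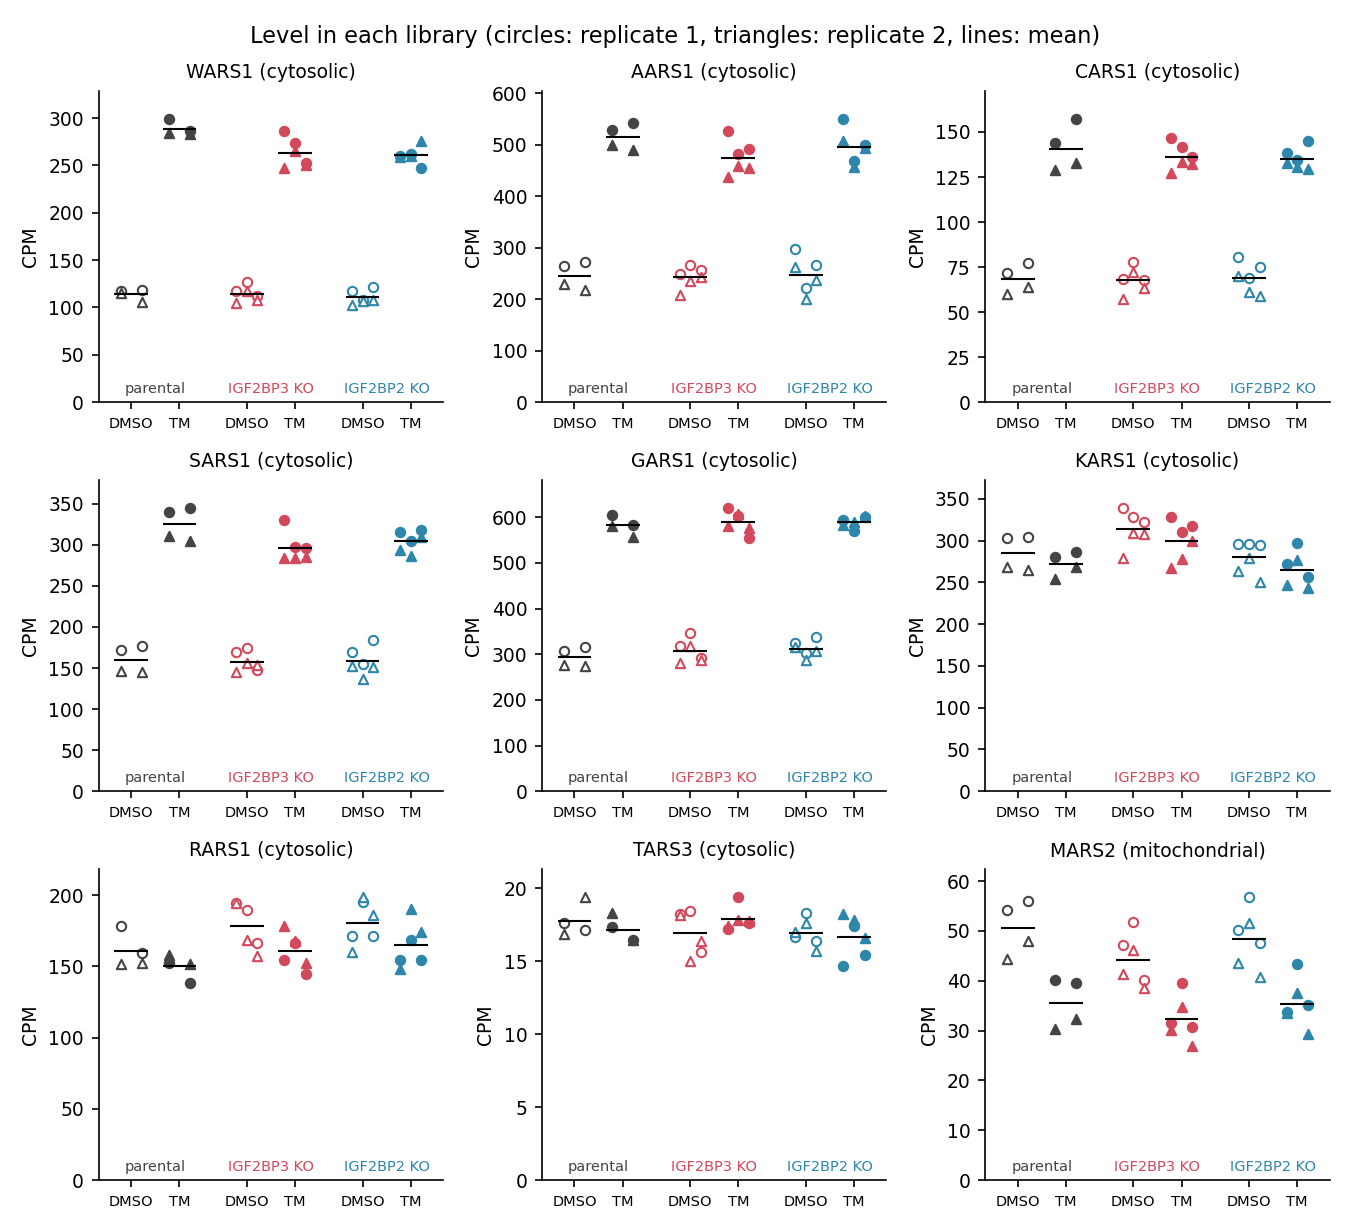
CPM of 9 synthetase genes in each of the 32 libraries (open symbols DMSO, filled symbols tunicamycin, circles replicate 1, triangles replicate 2, lines the group mean; axes start at 0). WARS1, AARS1, CARS1, SARS1 and GARS1 show no overlap of treatments, KARS1, RARS1 and TARS3 overlap in every genotype, and MARS2 lies lower with tunicamycin.

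Of the 8 other cytosolic genes, HARS1 (histidine), KARS1 (lysine, for both compartments), QARS1 (glutamine), TARS3 (a second threonyl enzyme) and VARS1 (valine) passed the test in no genotype. Their log2 fold changes lay between -0.077 (KARS1, IGF2BP2 knockout) and 0.095 (VARS1, IGF2BP3 knockout). HARS1 stood at 138.7, 145.8, 147.6 and 153 CPM in parental DMSO libraries and 143.3, 144.2, 145.1 and 155.2 under tunicamycin. KARS1 stood at 264.6, 268.9, 303 and 303.7 CPM in parental DMSO libraries and 254, 268.2, 279.9 and 286.2 under tunicamycin. TARS3 stood at 16.86, 17.17, 17.64 and 19.42 CPM and then 16.44, 16.47, 17.37 and 18.28. For KARS1 and TARS3 the treatments overlapped in every genotype. Thus TARS1 rose and its relative TARS3, at 3.877 against 52.41 CPM per kilobase in parental DMSO libraries, had no called change; that difference itself was not tested.

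RARS1, the arginine enzyme, was the cytosolic gene that fell. Its parental levels were 151.7, 152.7, 159.7 and 178.6 CPM under DMSO and 138.1, 151.4, 152.1 and 158.2 under tunicamycin, and its median went from 179 to 160.4 CPM in the IGF2BP3 knockout and from 178.5 to 161.5 in the IGF2BP2 knockout. Its ranges overlapped in each genotype. The log2 fold change was -0.14 ± 0.048 (SE; edgeR adjusted p = 0.0315) in the IGF2BP3 knockout, -0.13 ± 0.044 (edgeR adjusted p = 0.0352) in the IGF2BP2 knockout and -0.096 ± 0.060 (edgeR adjusted p = 0.299) in parental cells. Leaving out any clone of either knockout ended the call, with edgeR adjusted p from 0.0633 (without G6) to 0.173 (without B7). Its mean log2 ratio over 8 lines was -0.21 in replicate 1 and -0.049 in replicate 2.

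FARSA and FARSB encode the subunits of the cytosolic phenylalanine enzyme, which works as a tetramer of both. FARSA had log2 fold changes of 0.18, 0.19 and 0.13 with edgeR adjusted p of 0.0806, 0.0398 and 0.043 in the order of genotypes above. FARSB had 0.084, 0.077 and 0.11 with edgeR adjusted p of 0.306, 0.142 and 0.017. FARSA was higher with tunicamycin in 16 of 16 pairs and FARSB in 14 of 16, but the treatments overlapped in every genotype. Both calls of the IGF2BP2 knockout were lost without any 1 of its clones, at edgeR adjusted p of 0.114 to 0.143 for FARSA and 0.0769 to 0.123 for FARSB, and the FARSA call of the IGF2BP3 knockout without D12 (0.101) or E4 (0.257).

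Among the mitochondrial genes MARS2, HARS2, PARS2 and YARS2 fell in all 3 genotypes and LARS2 in the IGF2BP2 knockout. MARS2, which charges methionine for mitochondrial translation and lies at chr2:197705369-197708387 (plus strand), had parental levels of 44.45, 48.07, 54.09 and 55.97 CPM under DMSO and 30.25, 32.41, 39.64 and 40.24 under tunicamycin. The lowest, median and highest of the IGF2BP3 knockout were 38.48, 43.82 and 51.72 CPM and then 26.96, 31.1 and 39.56, and of the IGF2BP2 knockout 40.76, 48.84 and 56.83 and then 29.26, 34.46 and 43.31. The parental treatments did not overlap, those of the knockouts did, and tunicamycin was lower in 16 of 16 pairs. Its log2 fold change was -0.50 ± 0.10 (SE; edgeR adjusted p = 0.00458), -0.45 ± 0.052 and -0.45 ± 0.058. MARS1 and MARS2, the cytosolic and mitochondrial methionine enzymes, thus went in opposite directions in each genotype.

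PARS2, the proline enzyme, was low throughout, at 8.603, 8.927, 9.701 and 10.7 CPM in parental DMSO libraries and 6.849, 6.865, 7.937 and 8.151 under tunicamycin. Its log2 fold change was -0.34 ± 0.10, -0.31 ± 0.11 and -0.46 ± 0.096 (SE). YARS2 (tyrosine) had -0.23, -0.21 and -0.16, and HARS2 (histidine) -0.18, -0.18 and -0.21. HARS2 and YARS2 were lower with tunicamycin in 16 of 16 pairs and PARS2 in 15 of 16. YARS2 stood at 33.26, 34.85, 36.83 and 37.91 CPM in parental DMSO libraries and at 26.71, 29.62, 30.83 and 34.27 under tunicamycin, which overlap. HARS2 stood at 48.62, 49.8, 51.94 and 54.71 CPM and then 43.77, 44.11, 45.13 and 47.49, which do not.

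The calls of PARS2, YARS2 and HARS2 depended on which lines were kept and on the method. In parental cells DESeq2 called none of them (DESeq2 adjusted p = 0.0688, 0.0631 and 0.0755), nor YARS2 in the IGF2BP2 knockout (0.0558). PARS2 was called in parental cells by the main edgeR fit with no pair left out. It lost that call without any 1 of the 4 pairs (edgeR adjusted p from 0.0767 to 0.0888). Its IGF2BP3 knockout call was lost without A3, D12 or E4 (edgeR adjusted p = 0.0597, 0.183 and 0.113). HARS2 lost its parental call without replicate 1 of sample 1 or either replicate of sample 2 (0.122, 0.138 and 0.151) and its IGF2BP3 knockout call without E4 (0.143). YARS2 lost its parental call without either replicate of sample 1 (0.138 and 0.159), and its knockout calls without E4 (0.0579), B7 (0.122) or G6 (0.318). LARS2 lost its IGF2BP2 knockout call without B7 (0.165). In parental cells the 4 mitochondrial genes called lower became 1 without replicate 1 of sample 1 and 2 without any other parental pair; without replicate 1 of sample 2, WARS2 was called higher as well. In the IGF2BP3 knockout the 4 called lower became 1 without clone E4, and in the IGF2BP2 knockout the 5 became 3 without clone B7.

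The other 9 mitochondrial genes tested passed the test in no genotype, with log2 fold changes from -0.16 (FARS2, IGF2BP2 knockout) to 0.33 (WARS2, parental). WARS2 was the mitochondrial gene with the largest increase. Its levels were 7.517, 7.566, 8.273 and 8.289 CPM in parental DMSO libraries and 7.319, 9.641, 10.75 and 11.93 under tunicamycin, so the groups overlapped through 1 library. Its edgeR adjusted p was 0.132, 0.244 and 0.0535, and in parental cells without replicate 1 of sample 2 it was 0.0303. IARS2 (isoleucine), the mitochondrial gene with the highest level per kilobase, stood at 249.3, 251.1, 275.8 and 279.5 CPM and then 247.8, 250.4, 259.6 and 265.9 in parental cells, which overlap. It had log2 fold changes of -0.041, -0.011 and -0.018 beside those of IARS1 above.

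The compartments separated in each line. In each of the 16 pairs of a line and a replicate number, the median log2 ratio of the 20 cytosolic genes was above 0. That of the 14 mitochondrial genes was below 0 in each pair. The median over all genes past the filter ran from -0.023 to 0.00096, and was above 0 only in replicate 2 of clone B7. The cytosolic medians ran from 0.15 to 0.38 in replicate 1 and from 0.32 to 0.49 in replicate 2, and the mitochondrial ones from -0.16 to -0.046 and from -0.13 to -0.034. The cytosolic median minus the mitochondrial one was 0.45 ± 0.12 (SD, 4 pairs) in parental cells, 0.41 ± 0.10 (6 pairs) in the IGF2BP3 knockout and 0.44 ± 0.053 (6 pairs) in the IGF2BP2 knockout. The ranges of the 3 genotypes, 0.27 to 0.54, 0.27 to 0.52 and 0.36 to 0.52, overlapped.

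**Figure D3:**
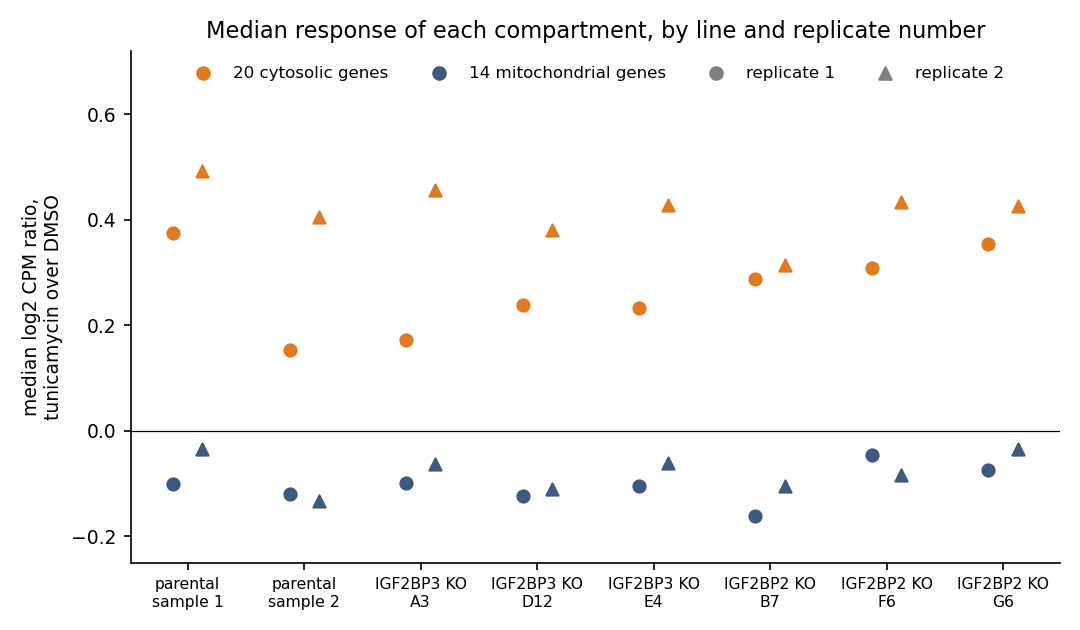
Median log2 CPM ratio of tunicamycin over DMSO across the 20 cytosolic and the 14 mitochondrial genes, for each line and replicate number. All 16 cytosolic medians lie between 0.15 and 0.49 and all 16 mitochondrial medians between -0.16 and -0.034.

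Cytosolic genes of like level before treatment differed widely in response. WARS1 and CARS1, with parental log2 fold changes of 1.34 and 1.05, had 17.96 and 6.803 CPM per kilobase. KARS1, at 70.12 CPM per kilobase, and GARS1, at 70.61, had nearly the same level and log2 fold changes of -0.064 and 0.99. Comparisons of levels rest on exon lengths from GENCODE v29, which may differ from the annotation used for counting.

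**Figure D4:**
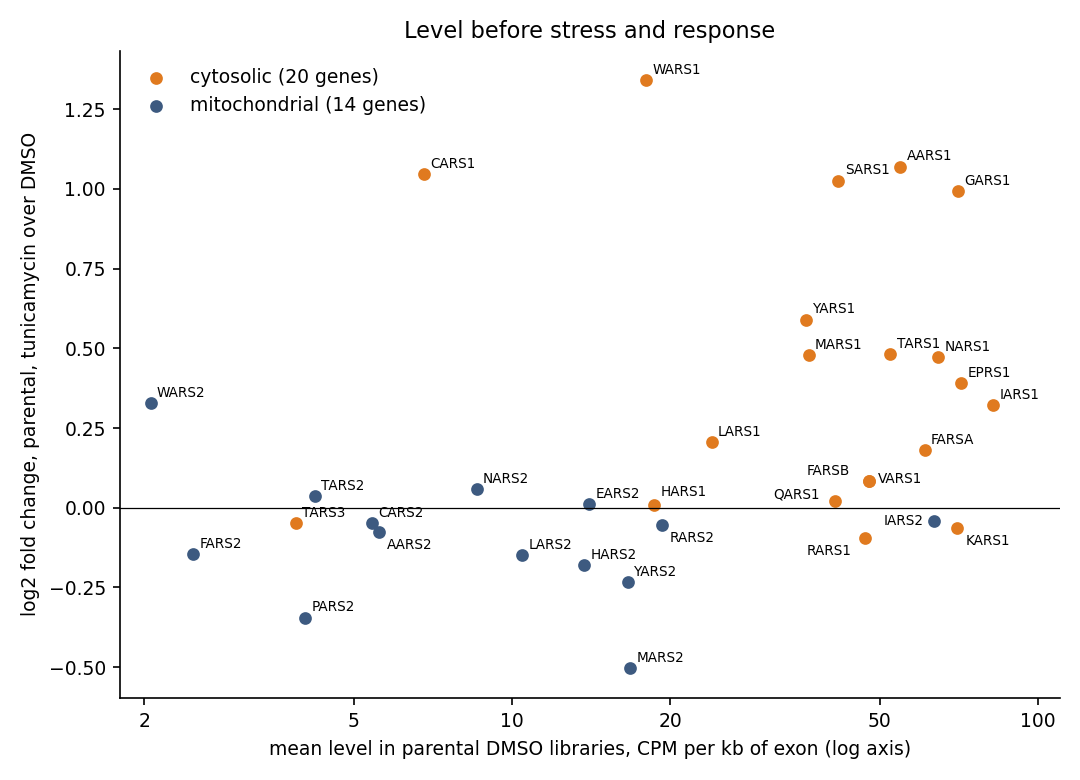
Mean level in parental DMSO libraries (CPM per kilobase of exon, log axis) against the parental log2 fold change, 1 point per gene. Large increases occur at low (CARS1, 6.803) and high (GARS1, 70.61) levels, and the mitochondrial genes lie mostly at lower levels and below 0.

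The cytosolic genes were then divided by an assignment to the multisynthetase complex made for this report, and by structural class. Of the 7 listed genes whose enzymes belong to the multisynthetase complex (EPRS1, IARS1, KARS1, LARS1, MARS1, QARS1 and RARS1), 4 rose in all genotypes. Of the 13 not assigned to it here, TARS3 among them, 8 did. That assignment does not establish that these 13 enzymes, TARS3 included, stay outside the complex, and whether any of them binds it was not tested. The median log2 fold change of the 7 genes was 0.21, 0.21 and 0.27 in parental, IGF2BP3 knockout and IGF2BP2 knockout cells. That of the 13 genes was 0.48, 0.46 and 0.51. The 5 genes with the largest increases, WARS1, AARS1, CARS1, SARS1 and GARS1, were all among the 13. By structural class, the 9 class I genes had medians of 0.32, 0.29 and 0.35 and the 10 class II genes 0.33, 0.28 and 0.28, with EPRS1, which holds a catalytic domain of each class, in neither. No test was run between these subsets.

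Promoter letters gave another division of the cytosolic genes, again with no test. The 7 cytosolic genes with TGATGNAA, shown above, all rose in all 3 genotypes, with parental log2 fold changes from 0.32 (IARS1) to 1.07 (AARS1) and a median of 0.48, 0.46 and 0.51 across the genotypes. The 9 cytosolic genes whose windows lacked it had medians of 0.084, 0.077 and 0.11, but WARS1, SARS1 and EPRS1 are among them and rose. Put the other way, 7 of the 10 genes that rose in all genotypes and had a window held the element, and 0 of the 6 other cytosolic genes with a window did. The 10 genes had more windows each: by window the counts were 7 of 15 (46.7%) and 0 of 6. LARS1, TARS3, VARS1 and YARS1 had no window. Among the mitochondrial genes, YARS2 held the element and fell in all 3 genotypes, in calls that depended on the lines kept. The stricter TTGCATCA, which is TGATGCAA on the other strand and so a subset of TGATGNAA, was in 6 of the 16 cytosolic genes with a window, 0 of the 14 mitochondrial genes and 1.08% of all genes. CCAAT, searched on both strands as a common promoter motif whose last base can be the first of TGATGNAA, was in 7 of 16 cytosolic genes, 9 of 14 mitochondrial genes and 39.7% of all genes. HARS1 and HARS2 are head to head with starts 85 bases apart, and their windows share 184 bases.

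**Figure D5:**
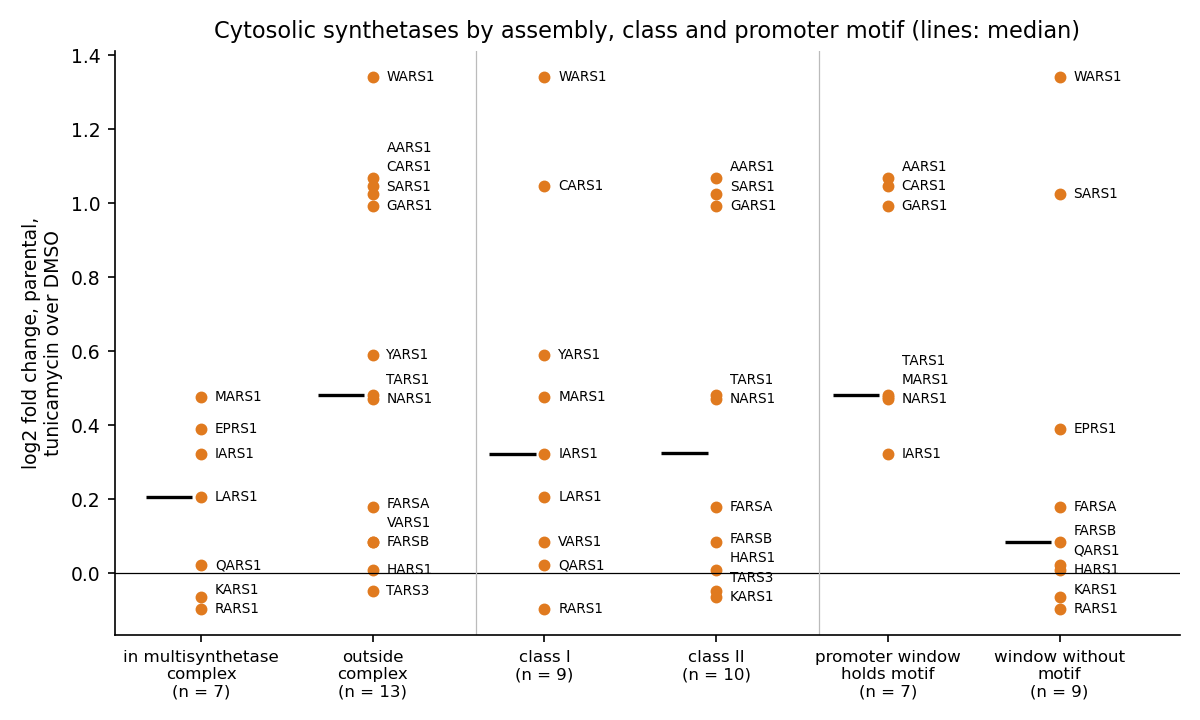
Parental log2 fold change of the cytosolic genes, 1 point per gene. Genes are grouped by assignment to the multisynthetase complex, structural class and presence of TGATGNAA in the promoter window. Lines are medians. The genes with the motif lie between 0.32 and 1.07, and WARS1 (1.34) and SARS1 (1.03) lie high without it.

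Other genes of the pathway gave the setting. ATF4 rose by 1.25 ± 0.075 (log2, SE), 1.15 ± 0.057 and 1.12 ± 0.052 in parental, IGF2BP3 knockout and IGF2BP2 knockout cells. All 9 genes of a list of known ATF4 targets rose in each genotype, with medians of 3.65, 3.68 and 3.50; they include ASNS (asparagine synthetase; 3.46, 3.68 and 3.31) and PSAT1 (serine synthesis; 1.36, 1.34 and 1.29). The cytosolic synthetase changes were thus smaller than the median of that list. EIF2AK3, the kinase PERK, had 2.89, 2.77 and 2.87, whereas EIF2AK4, the kinase GCN2 that senses uncharged tRNA, had -0.15, -0.096 and -0.15, with edgeR adjusted p of 0.0516, 0.158 and 0.00552.

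Of 4 genes that handle tRNA, XPOT and TRNT1 rose and ELAC2 fell in each genotype. XPOT, which exports tRNA from the nucleus, had log2 fold changes of 0.66, 0.56 and 0.65, TRNT1, which adds the CCA end, 0.33, 0.30 and 0.28, and ELAC2, which trims the 3′ end, -0.19, -0.17 and -0.22. Of the 3 scaffold genes of the multisynthetase complex, EEF1E1 had log2 fold changes of 0.31, 0.057 and 0.25 and passed the test in parental and IGF2BP2 knockout cells. AIMP2 had 0.16, 0.20 and 0.20 and passed in both knockouts, and AIMP1 passed in none. Of 3 editing genes (AARSD1, DTD1 and DTD2) none passed the test; DTD2 in the IGF2BP2 knockout had the lowest edgeR adjusted p, 0.0739. Of 9 tested partners of mitochondrial translation, MTFMT, which formylates the initiator methionyl-tRNA made by MARS2, fell in each genotype by 0.22, 0.20 and 0.26 on the log2 scale, and GATC, a subunit of the enzyme that completes glutaminyl-tRNA in mitochondria, had -0.21, -0.21 and -0.23, with edgeR adjusted p of 0.0515, 0.0227 and 0.00861. MTIF3 had 0.30, -0.082 and 0.096 and passed in parental cells. GFM1 had 0.0997, 0.099 and 0.18 and GFM2 0.19, 0.10 and 0.24, and both passed in the IGF2BP2 knockout. Of 4 tested cytosolic elongation genes EEF2 rose in each genotype (0.27, 0.23 and 0.21). EEF1A1 had 0.26, 0.20 and 0.20, with edgeR adjusted p of 0.0624, 0.00197 and 0.00527. For the genes of these lists that passed in some genotypes, edgeR's test of the difference between genotypes called none.

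The second comparison asked whether loss of IGF2BP3 or IGF2BP2 changed synthetase levels. No member passed edgeR's test between a knockout and parental cells. Under DMSO, 0 of 34 were called for the IGF2BP3 knockout, where 1.61% of all genes were called, and 0 of 34 for the IGF2BP2 knockout, where 0.0137% were. Under tunicamycin 0 of 34 were called for either knockout, against 0.718% and 0.00694% of all genes. These shares rest on 235, 2, 105 and 1 genes and moved with the libraries: without replicate 1 of parental sample 1 the IGF2BP3 knockout called 82 and 29 genes, and without clone G6 the IGF2BP2 knockout called 47 and 46. At an unadjusted p under 0.05 there were 7 and 3 of 34 members under DMSO and 7 and 4 under tunicamycin. Over all genes this threshold was met by 1994 of 14568 and 690 of 14564 under DMSO. Under tunicamycin it was met by 1502 of 14626 and 1005 of 14419. DESeq2 called 1 member, NARS1, in the IGF2BP3 knockout under DMSO and 0 in the other 3 comparisons.

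NARS1 was the closest to a genotype difference. Its parental DMSO libraries stood at 244.1, 255.2, 272.9 and 284.4 CPM. The IGF2BP3 knockout libraries ran from 277 through a median of 304.2 to 334.1 CPM and the IGF2BP2 knockout libraries from 273.6 through 298 to 312.6. Both knockouts overlapped the parental range. The log2 difference was 0.20 ± 0.051 (SE; edgeR adjusted p = 0.0692) for IGF2BP3 and 0.17 ± 0.056 (edgeR adjusted p = 0.983) for IGF2BP2; both comparisons use the same parental libraries. WARS1 under tunicamycin had a log2 difference from parental of -0.14 ± 0.049 (edgeR adjusted p = 0.328) in the IGF2BP3 knockout and -0.14 ± 0.045 (0.695) in the IGF2BP2 knockout. Over all members the log2 differences ran from -0.37 (WARS2, IGF2BP3 knockout under tunicamycin) to 0.23 (EPRS1, IGF2BP2 knockout under tunicamycin). WARS2 in the IGF2BP3 knockout was also the lowest under DMSO, at -0.27. The median SE of these differences was 0.056 to 0.064. As edgeR called none of these, the tests do not show that differences of such sizes are absent.

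The third comparison asked whether the tunicamycin response itself differed between genotypes, as an interaction of genotype and treatment. For each of the 3 pairs of genotypes edgeR called 0 of 34 members, where 0% of all genes were called. DESeq2 also called 0. At an unadjusted p under 0.05 there were 0 members. Over all genes there were 255 of 15313 (IGF2BP3 knockout and parental), 213 of 15178 (IGF2BP2 knockout and parental) and 271 of 14916 (both knockouts). The largest estimates were 0.14 ± 0.097 (log2, SE) for TARS3 and -0.13 ± 0.065 for WARS1 (IGF2BP3 knockout minus parental), -0.11 ± 0.15 for PARS2 (IGF2BP2 knockout minus parental) and 0.15 ± 0.15 for PARS2 (IGF2BP3 knockout minus IGF2BP2 knockout). With median SEs of 0.084, 0.080 and 0.072 these tests do not show that the genotypes respond alike. Of the 20 cytosolic genes 14 had a smaller response in the IGF2BP3 knockout than in parental cells. In the IGF2BP2 knockout 14, counted separately, did, and the medians were -0.014 and -0.029. Of the 14 mitochondrial genes 6 and 8 did, with medians of 0.0051 and -0.016. Over all genes tested the medians were 0.0081 and -0.002. Both comparisons use the same parental libraries. As a description across genes, which are not independent replicates and share the libraries of their genotype, Pearson's r of the log2 fold changes over the 34 genes was 0.994 between parental and each knockout and 0.991 between the knockouts.

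Clones of a genotype differed in some members, and the share of all genes that differed is given beside each count. In the IGF2BP3 knockout 2 of 34 members, MARS2 and HARS2, differed between the clones A3, D12 and E4, where 7.63% of all genes did. MARS2 averaged 37.58, 43.06 and 34.07 CPM over both treatments in A3, D12 and E4 (edgeR adjusted p = 0.0101), and HARS2 44.19, 45.35 and 52.17 (edgeR adjusted p = 0.034). MARS2 was therefore highest in D12 and HARS2 in E4. Without D12 or without E4 no member was called, and without A3 the calls were GARS1, LARS1 and MARS2.

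In the IGF2BP2 knockout 6 of 34 members differed between clones, where 26.4% of all genes did. AARS1 averaged 404.7, 337.4 and 374.2 CPM in B7, F6 and G6 (edgeR adjusted p = 0.00282), HARS1 134.7, 129.8 and 151.2 (0.000777) and IARS2 258.6, 299.1 and 246.1 (0.00107). MARS2 averaged 40.27, 47.31 and 38.15 CPM (edgeR adjusted p = 0.0138), RARS1 158.3, 188.3 and 171.5 (0.0156) and EPRS1 534.9, 554.6 and 482.5 (0.0383). F6 was the highest clone for IARS2, MARS2, RARS1 and EPRS1 and the lowest for AARS1 and HARS1, and without F6 HARS1 was the 1 member called. Without G6, which shares no guide with B7 and F6, HARS1 and EPRS1 were no longer called (edgeR adjusted p = 0.27 and 0.764).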

How the data were processed

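RNA of 32 libraries was poly(A)-selected and sequenced from a directional kit, per the labels' protocols. The authors deposited 1 table of raw gene counts in whole numbers; STAR 2.7.5c and hg38 are named in the submitters' processing notes, and the counting tool, annotation and use of strand are not given in the sources used here. Members and related gene lists were chosen with earlier results of these data known. Named genes are all 36 members and the genes of those lists. Per-library values follow a rule: the 5 largest cytosolic increases, the 2 smallest, the 3 largest mitochondrial decreases, members called between genotypes or clones, and TARS3. LARS1, NARS1 and WARS2 were added after their values were seen.

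Counts were tested with edgeR 4.0.16 in R 4.3.3 (TMM normalization, filterByExpr by group, quasi-likelihood F test, Benjamini-Hochberg adjustment over all genes tested, threshold 0.05). Each comparison was fitted on its own groups; treatment and interaction fits had the line (clone or parental sample) as a term, genotype fits had no covariate, and clone tests compared 3 clones over both treatments. CPM uses TMM library sizes over all 32 libraries; within-pair ratios are of log2 CPM with a prior count of 2. SE is derived from the estimate and its F statistic. Fits were checked on simulated counts with 200 changed genes. Replicate libraries differed beyond counting noise (chi-square per degree of freedom 4.59 to 25.2 in 16 pairs), so none was merged. Symbols, lengths and overlaps are from GENCODE v29, promoters from RefSeq. Protein sequences were not used here. Alternatives were other normalization, DESeq2 1.42.0, other filters, a replicate block, all libraries in 1 fit, no line term, and leaving out lines. WARS2 and PARS2, the members with the lowest CPM of those tested in parental DMSO libraries, had 154 to 263 and 143 to 263 counts in the parental libraries.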

Additional observations from a re-analysis of the deposited data

Results flagged for a closer look

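In 204 sets of a member and a group of 4 to 6 libraries, 5 libraries stood apart from the rest of their group by Dixon's criterion, which chance alone meets in about 1 of 20 sets. HARS1 was at 155.2 CPM in replicate 1 of parental sample 2 with tunicamycin, against 143.3 to 145.1 in the others. IARS2 was at 278.5 CPM in replicate 1 of clone D12 with tunicamycin, against 248.4 to 256.9. TARS3 was at 19.4 CPM in the same library, against 17.24 to 17.85. SARS1 was at 329.7 CPM in replicate 1 of clone A3 with tunicamycin, against 284 to 298. LARS1 was at 286.5 CPM in replicate 2 of clone F6 with tunicamycin, against 239.4 to 254. Each was the highest library of its group, and 4 of the 5 carry replicate number 1.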

How the results depend on the processing

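Of 802 member values under settings other than leaving out a line, 754 kept their direction and side of the threshold, 35 were no longer called, 13 became called and 0 reversed; of 364 values with a line or parental pair left out, the numbers were 313, 50, 1 and 0. WARS1, AARS1, CARS1, SARS1, GARS1, YARS1, TARS1, MARS1, NARS1, IARS1 and MARS2 kept their calls in all 3 genotypes under all 32 alternatives of the treatment comparisons. The mitochondrial genes called lower in parental cells (4) were 2 with DESeq2 size factors in edgeR, 1 with DESeq2 and 2 without a filter, and 1 to 2 with a parental pair left out; a replicate block gave 5. Leaving out a clone gave 1 to 3 in the IGF2BP3 knockout (4) and 3 to 5 in the IGF2BP2 knockout (5). Members called between the IGF2BP3 knockout and parental cells under DMSO (0) were 1, NARS1, with DESeq2, with a mean CPM of at least 1 and with a replicate block. Members that differed between IGF2BP3 knockout clones (2) were 6 with a replicate block, 1 with all 32 libraries in 1 fit and 0 to 3 with a clone left out; for IGF2BP2 knockout clones (6) they were 16 with a replicate block and 1 to 5 with a clone left out. The cytosolic minus mitochondrial difference in the IGF2BP2 knockout (0.44) was 0.52 with means in place of medians; that shift follows from the construction, and the cause of the others was not tested. The labels do not say that replicate numbers mark a shared day or culture. Same-numbered libraries deviated together in 119 of 120 pairs of groups at a correlation over 0.1 (lowest 0.0878, median 0.375); under the replicate block 20, 21 and 22 members were called in the treatment comparisons in place of 16, 18 and 20. WARS2 was then called higher in parental cells (edgeR adjusted p = 0.0365) and in the IGF2BP2 knockout (0.000767), where it was also called with DESeq2 (0.0358), with DESeq2 size factors in edgeR (0.0452) and without a filter (0.0152). Without the clone G6 control libraries 16 members were called in the IGF2BP2 knockout, FARSA, FARSB, RARS1 and YARS2 being lost. Over all genes, IGF2BP3 knockout against parental called 235 genes under DMSO and 105 under tunicamycin, against 507 and 271 with DESeq2, 513 and 333 with a replicate block, 508 and 491 with all 32 libraries in 1 fit and 47 and 34 with counts summed per line; 427 were called under DMSO without a filter. Replicate-block fits called 5989 genes in place of 3854 in parental cells, and 2080 in place of 1089 and 5844 in place of 3729 between clones. IGF2BP2 knockout against parental called 2 and 1 genes, against 156 and 245 with all 32 libraries in 1 fit, 12 and 3 with DESeq2, 47 and 46 without clone G6 and 8 and 14 without clone F6. With a parental pair left out, the IGF2BP3 knockout counts were 82 to 134 under DMSO and 29 to 55 under tunicamycin, the lowest without replicate 1 of sample 1, and 68 under tunicamycin without clone D12. Between clones they were 486 without D12, 194 without E4, 1564 without B7 and 1659 without F6. The treatment comparisons called 2519 genes in parental cells without replicate 1 of sample 1, and 3176 and 3174 in place of 4820 in the IGF2BP3 knockout without D12 and E4. Depth limits the members below 20 CPM, and SARS2 and VARS2 could not be fitted.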
